A study of Homo sapiens with 25 samples.

Results

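SOX2, SOX4, SOX9 and SOX21 are 4 genes of the SOX family of transcription factors, 4 of the 19974 protein-coding genes of the gene table used here. They were taken by name. A peak was assigned to a member when it overlapped the gene body or the 100 kb on either side by at least 1 bp. By this rule the 20 peak lists of the study placed 497 peaks at the members, 166 at SOX2, 127 at SOX4, 98 at SOX9 and 106 at SOX21.

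The lists come from chromatin immunoprecipitation followed by sequencing (ChIP-seq) of untreated cells of 4 lines established from human lung adenocarcinomas (HCC364, NCI-H441, NCI-H358 and NCI-H2087), grown in serum-containing medium and fixed with formaldehyde. Antibodies to NKX2-1, H3K27ac and H3K4me1 were used in every line. NCI-H2087 was also profiled for SOX2, FOXA1, FOXA2, c-Jun, EP300, RNA polymerase II (RNAPolII), H3K4me3 and CTCF. Every line was profiled by 1 library per antibody, so differences between lines could not be set against a spread between replicates and were not tested. Intervals of shares are 95% Clopper-Pearson intervals (exact) and reflect counting error alone. H3K27ac, within 1 kb of an annotated gene end, marked all 5 epithelial genes examined (EPCAM, CDH1, KRT8, KRT18, KRT19) in every line. It marked NKX2-1 and NAPSA in every line and SFTPB in all but NCI-H358. The endothelial genes PECAM1 and CDH5 and the blood gene PTPRC had no such peak in any line, whereas CD3E had one in all but HCC364, COL1A1 in all 4 lines and PDGFRB in NCI-H2087 and NCI-H441.

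SOX proteins bind DNA through a high-mobility-group box and usually act with a partner factor bound beside them. SOX2 is a determinant of the proximal airway epithelium and of pluripotent cells and is a recurrently gained oncogene in squamous lung cancer. SOX9 marks the distal tip progenitors of the branching lung, SOX4 is a widely expressed progenitor and tumour-associated factor, and SOX21 is a close relative of SOX2 that is expressed in the developing airway. NKX2-1 is the lineage factor of lung epithelium, and FOXA1 and FOXA2 are forkhead pioneer factors of endodermal tissues. H3K27ac marks active promoters and enhancers, H3K4me1 marks enhancers broadly, and H3K4me3 marks promoters.

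The promoters of SOX2, SOX4 and SOX21 are shown because each lay under a peak of NKX2-1 and of H3K27ac in at least 1 line. SOX9 also had both peaks at its lower-coordinate end, but the promoter set used here had no entry for SOX9. The 250 bases before the annotated start are given in the direction of transcription from RefSeq on GRCh38.p14, at chr3:181711675-181711924 on the plus strand for SOX2, chr6:21593501-21593750 on the plus strand for SOX4 and chr13:94712546-94712795 on the minus strand for SOX21. Capitals mark every match to the letters CCAAT on either strand, the core of a promoter element bound by the NF-Y complex.
SOX2: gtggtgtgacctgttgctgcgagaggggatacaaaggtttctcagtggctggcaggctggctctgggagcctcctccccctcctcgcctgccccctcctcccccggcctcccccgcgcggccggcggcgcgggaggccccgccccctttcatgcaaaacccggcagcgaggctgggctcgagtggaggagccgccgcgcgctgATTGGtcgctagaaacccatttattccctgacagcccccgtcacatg
SOX4: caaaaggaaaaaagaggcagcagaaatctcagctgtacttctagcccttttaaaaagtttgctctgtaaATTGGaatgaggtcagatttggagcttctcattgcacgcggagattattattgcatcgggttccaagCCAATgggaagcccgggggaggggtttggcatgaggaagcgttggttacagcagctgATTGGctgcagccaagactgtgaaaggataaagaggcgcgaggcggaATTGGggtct
SOX21: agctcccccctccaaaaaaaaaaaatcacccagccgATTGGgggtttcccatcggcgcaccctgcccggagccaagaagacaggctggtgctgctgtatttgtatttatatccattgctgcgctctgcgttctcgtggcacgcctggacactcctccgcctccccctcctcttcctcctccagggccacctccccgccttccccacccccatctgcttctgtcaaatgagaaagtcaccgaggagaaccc
SOX4 held 4 matches to CCAAT, and SOX2 and SOX21 held 1 each, 47 and 214 bases before the start. Of 35116 promoters of the same length, 32% held at least 1 match. None of the 3 promoters held AACAAT (a core of SOX sites, in 8.98% of all promoters), TGTTTAC (a forkhead core, 2.98%) or CACTTGA (a core of NKX2-1 sites, 2.06%), all searched on both strands. The SOX2 promoter was the richest of the 3 in G and C, at 68.8%, against 58.8% for SOX21, 48.8% for SOX4 and a median of 58% over all promoters. It held 20 CpG dinucleotides, SOX21 11 and SOX4 8, where the median promoter had 11.

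The ends of all 4 genes carried promoter marks in NCI-H2087. H3K4me3 lay within 1 kb of an end of every member, as at 65.9% of all genes. At SOX2 (chr3:181711925-181714436) its peak spanned 8.97 kb with a fold of 160, in the top 5.02% of its list by the authors' fold over local background. The H3K4me3 peaks of SOX4 (chr6:21593751-21598619), SOX9 (chr17:72121020-72126416) and SOX21 (chr13:94709622-94712545) had folds of 91.2, 93.5 and 92.1 and lay in the top 30.7%, 29.5% and 30.1%. The order was different for RNA polymerase II. SOX4 led with a peak of 11.7 kb and a fold of 54.8, in the top 2.18% of the list. SOX21 (29.9, top 8.54%), SOX9 (29.1, top 8.97%) and SOX2 (17.2, top 19.6%) followed. The SOX21 peak, chr13:94711762-94714408, overlapped the start of the gene. Its summit lay in the neighbouring long non-coding RNA SOX21-AS1 (chr13:94712716-94715945). At the other end of SOX21 RNA polymerase II reached a fold of 12 (top 29.3%).

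H3K27ac lay at an end of all 4 members in NCI-H2087, where 58.1% of all genes met the same rule, and likewise in HCC364 (58.7%) and NCI-H358 (56.9%). In NCI-H441 it lay at 3 of the 4 (background 56.2%), SOX21 being the exception. SOX2, SOX4 and SOX9 thus met the rule in all 4 lines, as 49.4% of all genes and 37.6% of the 5658 genes with a body under 10 kb did. The extent of the mark at the gene differed by line. At SOX2 1 peak of 9.53 kb covered the whole gene in NCI-H2087 and 1 of 5.96 kb did in NCI-H358. NCI-H441 had 2 peaks of 1133 and 3329 bp there, and HCC364 had 721 bp at the start alone. At the lower-coordinate end of SOX9 the H3K27ac peak of NCI-H358 had a fold of 67.0, in the top 1.68% of that list. The same end lay in the top 39.7% in NCI-H2087 and in the top 21.3% in HCC364, and in NCI-H441 its peak was 514 bp long and in the top 83.8%. SOX21 had no H3K27ac at its ends in NCI-H441. In HCC364 it had a peak of 573 bp, 895 bp from the gene and inside SOX21-AS1. NCI-H2087 and NCI-H358 had broader peaks at the start of SOX21, 3.38 and 1.95 kb long.

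NKX2-1 peaks were present in the window of every member in every line, a rule that 92.2% of all genes met. In NCI-H2087 SOX2 had 10 NKX2-1 peaks, with 8 for NCI-H358, 13 for NCI-H441 and 7 for HCC364. SOX4 had 9, 11, 12 and 6 in the same order, SOX9 had 5, 9, 8 and 9, and SOX21 had 7, 11, 5 and 5. The medians over all genes were 9, 9, 12 and 11, and over genes under 10 kb 8, 8, 10 and 9. Thus 4 of the 16 counts lay above the median over all genes, none by more than 2 peaks. More lay above the median over genes under 10 kb. These were SOX2 in NCI-H2087 and NCI-H441, SOX4 in all lines but HCC364, and SOX9 and SOX21 in NCI-H358. The line with most NKX2-1 peaks was NCI-H441 for SOX2 and SOX4, NCI-H358 for SOX21, and NCI-H358 with HCC364 for SOX9.

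**Figure D1:**
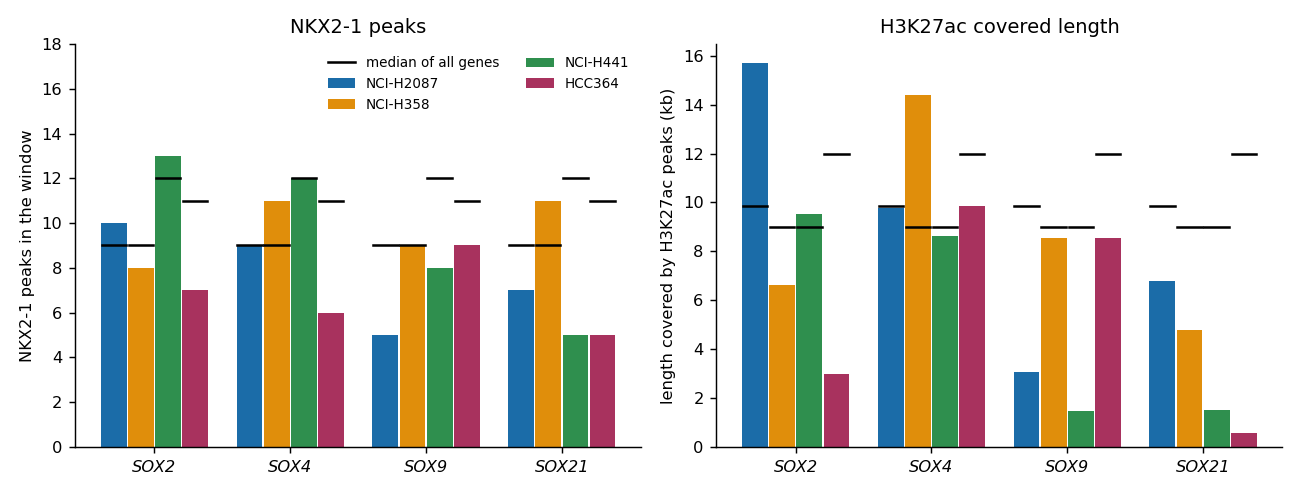
NKX2-1 peaks (left) and length covered by H3K27ac peaks in kb (right) in the gene body plus 100 kb on each side, for each gene (x axis) and line (bars, 1 library each), with the median over all protein-coding genes as a black line. Covered length at SOX2 runs from 2.99 kb in HCC364 to 15.7 kb in NCI-H2087, and at SOX9 NCI-H358 and HCC364 stand at 8.56 and 8.53 kb against 3.06 and 1.46 kb in the other lines.

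The length covered by H3K27ac spread over the lines by 5.24 times from the lowest to the highest at SOX2, 1.67 times at SOX4, 5.85 times at SOX9 and 11.8 times at SOX21. The SOX2 window held 15.7 kb of H3K27ac in NCI-H2087, 6.63 kb in NCI-H358, 9.51 kb in the line NCI-H441 and 2.99 kb in HCC364. HCC364 had the longest H3K27ac list of the 4 lines, 56384 peaks against 47136 to 51482, and the highest median per gene, 12 kb against 9 to 9.87 kb. At SOX4 the lengths were 9.78, 14.4, 8.63 and 9.84 kb in the same order of lines. At SOX9 they were 3.06, 8.56, 1.46 and 8.53 kb, so NCI-H358 and HCC364 stood above the other 2 lines. At SOX21 they were 6.79, 4.78, 1.49 and 0.573 kb. At both SOX9 and SOX21 every line lay below its median over all genes, which was 9.87, 9, 9 and 12 kb. Over genes under 10 kb the medians were 8.67, 8.22, 8.34 and 10.7 kb. SOX9 in NCI-H358 lay above that median, and the other lengths at SOX9 and SOX21 lay below it. The highest and the lowest line were therefore not the same for the 4 genes. NCI-H2087 was highest at SOX2 and SOX21, and NCI-H358 was highest at SOX4 and, narrowly over HCC364, at SOX9.

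The background count that the peak caller used near each gene moved with part of this order. It was solved from fold and p of the peaks within 1 Mb and divided by the median of the library. At SOX2 the ratio for H3K27ac was 1.48 in NCI-H2087 and 1.66 in NCI-H441, the lines with most H3K27ac there, and 1.02 in NCI-H358 and 1.00 in HCC364. The NKX2-1 and H3K4me1 libraries gave ratios of 1.29 and 1.27 in NCI-H2087 and 1.44 and 1.55 in NCI-H441. At SOX9 NCI-H358 stood out with 1.38 for NKX2-1, 1.39 for H3K27ac and 1.45 for H3K4me1. HCC364, with nearly the same H3K27ac length at SOX9, had 1.00, 0.946 and 0.999. At SOX4 and SOX21 no ratio was above 1.15. Whether the input libraries set this background is not stated in the labels, so it may have come from the same library as the peaks. The part of this local level in the line differences was not tested.

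At SOX2, NKX2-1 peaks of the 4 lines merged into 19 regions, of which 4 were found in all lines and 10 in 1 line. Regions were ranked by their mean fold over the lines with a peak there, so the mean of a region found in 1 line rests on that line's list alone. The first by this rank lay 40.9 kb above the gene, chr3:181755383-181756940, outside any gene of the table. Its folds were 31.1, 23.1, 25.8 and 24.7 in the order of lines used above, NCI-H2087 first and HCC364 last. H3K27ac overlapped it in NCI-H2087 and NCI-H441 and not in NCI-H358 or HCC364. The NCI-H441 peak was 353 bp long with a fold of 2.94, near the bottom of its list (top 99.6%). The NCI-H2087 peak (fold 6.26, top 57.3%) had its summit at chr3:181757700, beyond the region. The second, chr3:181739388-181740229, lay 24.9 kb above the gene inside the annotated body of the long non-coding RNA SOX2-OT, with folds of 8.94, 12.0, 27.1 and 27.1. H3K27ac overlapped that region in all lines but NCI-H358. The promoter region chr3:181711202-181712199 was also bound in all 4 lines, with folds of 11.5, 7.52, 10.1 and 8.77, and carried H3K27ac in all 4. The fourth shared region lay 87.1 kb below the gene and carried H3K27ac in NCI-H2087 and NCI-H441 only. The NCI-H2087 peak there had a fold of 7.98 (top 44.8%), and the NCI-H441 peaks had folds of 4.09 and 3.36 (top 89.7% and 97.8%). The window thus held shared NKX2-1 binding with H3K27ac peak calls that differed by line, some of them near the bottom of their list. A region without an H3K27ac peak is not shown to lack the mark. The third by this rank, chr3:181799277-181799746, was found in NCI-H441 alone with a fold of 13.4 and had no H3K27ac in any line. NCI-H441 had 5 of the 10 regions found in 1 line at SOX2. H3K27ac 67 to 68 kb above the gene was present in all 4 lines, with peaks of 1654, 277, 1214 and 1732 bp, and NKX2-1 lay there in HCC364 only.

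**Figure D2:**
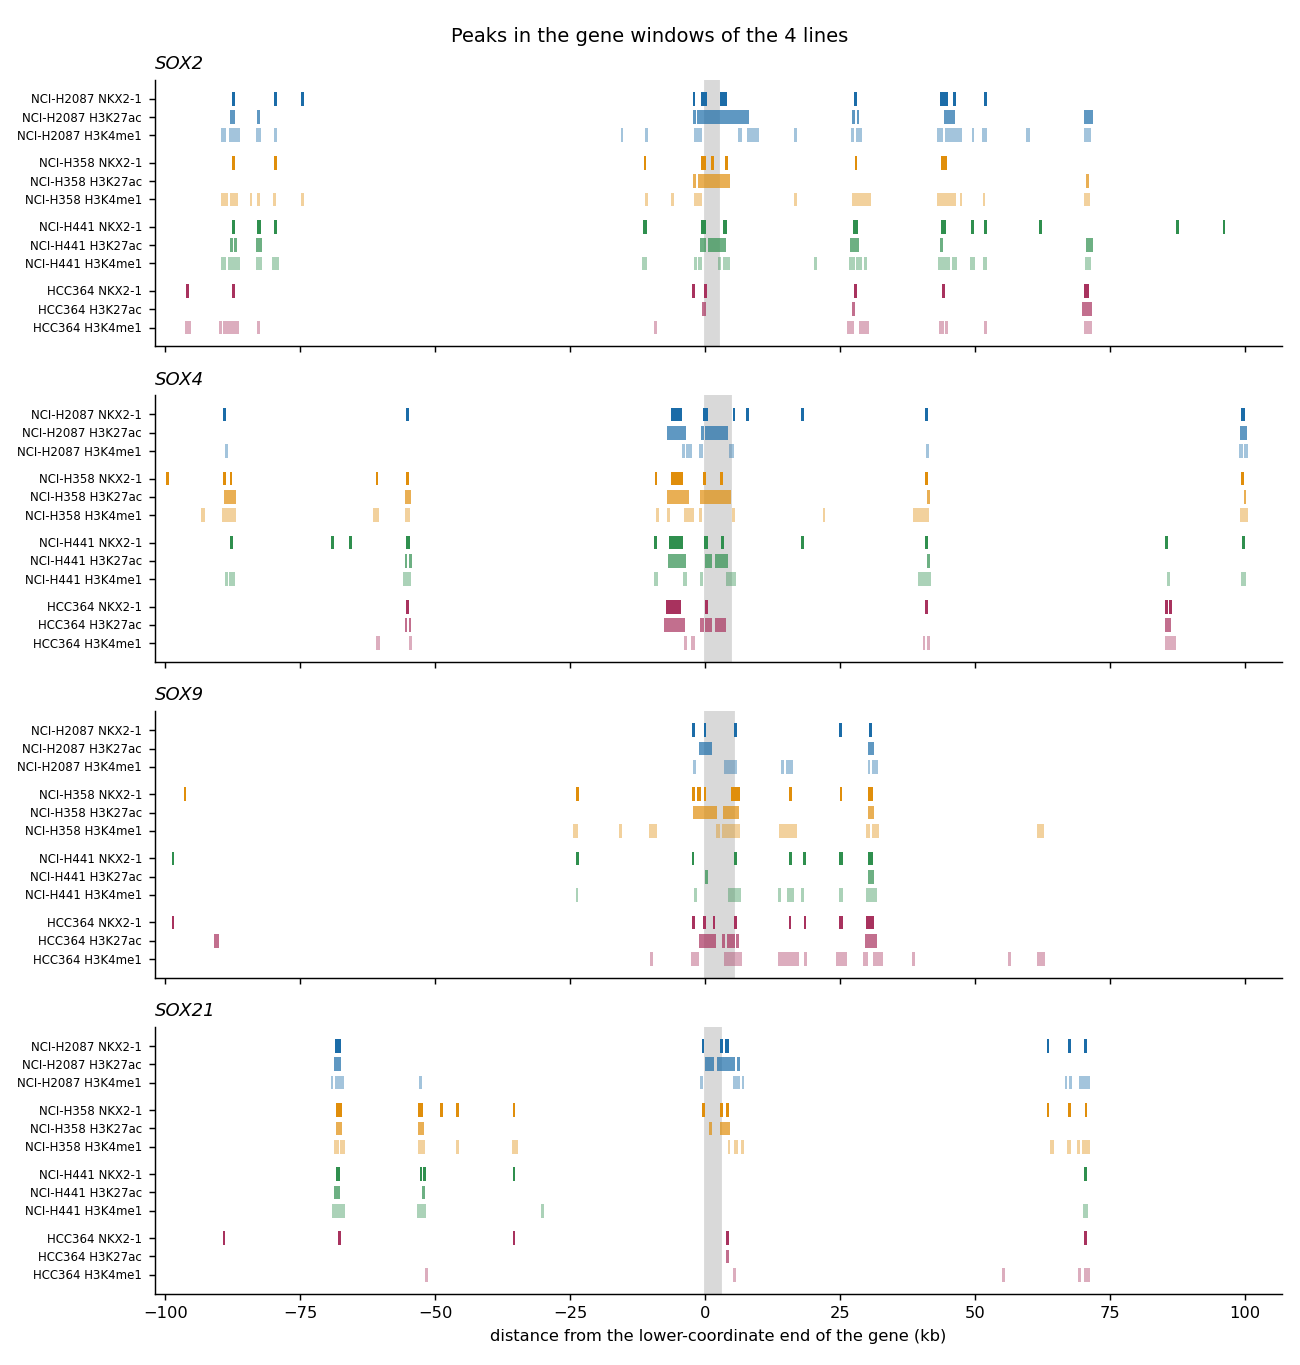
Peaks of NKX2-1, H3K27ac and H3K4me1 (rows) in the 4 lines (colours) against the distance in kb from the lower-coordinate end of each gene, with the gene body in grey and peaks under 0.5 kb drawn 0.5 kb wide. The H3K27ac block at SOX2 is longest in NCI-H2087 and shortest in HCC364, and the 2 blocks at and just below SOX4 are present in all 4 lines.

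SOX4 had 18 NKX2-1 regions, 4 of them in all lines and 7 in 1 line. The region nearest below the gene, chr6:21586596-21589622, lay 4.13 kb from its start and had folds of 16.9, 16.1, 13.4 and 18.7 in the same order of lines. It carried H3K27ac in all 4 lines. These H3K27ac peaks were 3588, 4178, 3425 and 3989 bp long and had higher folds than the H3K27ac peaks on the gene itself in every line. In NCI-H2087 the fold was 41.8 (top 1.35%) against 25.3 on the gene, in NCI-H358 59.5 against 45.5, in NCI-H441 27.1 against 17.9, and in HCC364 28.9 against 13.4. In NCI-H2087 the same stretch held H3K4me3 with a fold of 55.2, RNA polymerase II with 45.4 and CTCF with 72.5. The region with the highest mean fold, chr6:21538320-21539039, 54.7 kb below the gene, had folds of 4.51, 16.4, 28.2 and 15.8. It lies in the long non-coding RNA LOC107986579 and carried H3K27ac in the 3 lines other than NCI-H2087. The third, chr6:21693014-21693857 in CASC15, 94.4 kb above the gene, was bound in NCI-H2087, NCI-H358 and NCI-H441 with folds of 21.6, 9.98 and 10.6 and not in HCC364. It carried H3K27ac in NCI-H2087 and NCI-H358.

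SOX9 had 12 NKX2-1 regions, 4 of them in all lines and 3 in 1 line. The first by mean fold, chr17:72145790-72146520, 19.4 kb above the gene, had folds of 16.6, 7.87, 30.4 and 40.3, the last, in HCC364, in the top 3.58% of its list. It had no H3K27ac in any line. A neighbour 24.4 kb above the gene, chr17:72150785-72152322, had lower folds of 5.79, 10.2, 10.1 and 19.5 but carried H3K27ac and H3K4me1 in all 4 lines. The region at the lower-coordinate end, chr17:72120563-72121258, was bound in NCI-H2087, NCI-H358 and HCC364 with folds of 10.1, 11.6 and 11.2. NCI-H441 had no NKX2-1 peak there and had the shortest H3K27ac peak at that end. A region over the other end, chr17:72125791-72127401, was bound in all 4 lines and carried H3K27ac in NCI-H358 and HCC364 only. NCI-H358 and HCC364, the lines with more H3K27ac at SOX9, were thus the ones with the mark at both ends of the gene. HCC364 also had a peak of 892 bp near the lower edge of the window, where no other line had one.

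SOX21 had 13 NKX2-1 regions, 2 of them in all lines and 4 in 1 line. The first by mean fold, chr13:94779867-94780456, lay 67.3 kb above the gene in LOC101927284, with folds of 32.2, 25.2, 11.7 and 30.3. It had no H3K27ac in any line. The other shared region, chr13:94641063-94642344, 67.3 kb below the gene, had folds of 15.7, 16.1, 18.8 and 9.81 and carried H3K27ac in all lines but HCC364. A region 60.4 kb above the gene, chr13:94772965-94773392, was bound in NCI-H2087 and NCI-H358 with modest folds of 9.6 and 6, and in NCI-H2087 it held a FOXA2 peak with a fold of 132, rank 219 of 82111 and in the top 0.267% of that list. The FOXA1 fold there was 63.3. NKX2-1 regions at the start of SOX21 were bound in NCI-H2087 and NCI-H358, with none in NCI-H441. HCC364 had a peak only at the one 0.85 kb away, which lies inside SOX21-AS1.

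Over the 4 windows, 14 of 62 NKX2-1 regions were found in all 4 lines, 22.6% (12.9 to 35.0%), where the genome-wide share was 22.3%. For H3K27ac 6 of 24 regions were found in all lines, 25% (9.77 to 46.7%) against 23.9%, and for H3K4me1 13 of 64, 20.3% (11.3 to 32.2%) against 21.2%. Sharing over all 4 lines at these genes was therefore close to that of the genome, within wide intervals. Without HCC364 the share of H3K4me1 regions in all of the remaining 3 lines was 37.3%. That value was not set against a genome-wide share for 3 lines. SOX21 was the only member with no H3K27ac region in all lines, 0 of 5, which with 5 regions allows a share of up to 52.2%.

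H3K27ac went with NKX2-1 binding by line at the regions found in 1 to 3 lines. Of 79 pairs of region and line with an NKX2-1 peak, 29 had H3K27ac (36.7%), and of 113 pairs without the peak 13 did (11.5%), a difference of 25.2 points. The genome-wide shares were 39.0% and 11.6%, a difference of 27.4 points. At SOX21 the counts were 8 of 20 pairs against 0 of 24, and at SOX4 8 of 22 against 2 of 34. The difference was smaller at SOX2, 8 of 22 against 7 of 38, and at SOX9, 5 of 15 against 4 of 17. At regions bound in all 4 lines H3K27ac was present in 34 of 56 pairs, 60.7%, against 67.8% genome-wide. These pairs share libraries and neighbouring regions and are not independent. For H3K4me1 the shares were 55.7% with and 22.1% without the NKX2-1 peak, a difference of 33.6 points, where the genome-wide shares were 63.4% and 23.6%, a difference of 39.8 points.

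**Figure D3:**
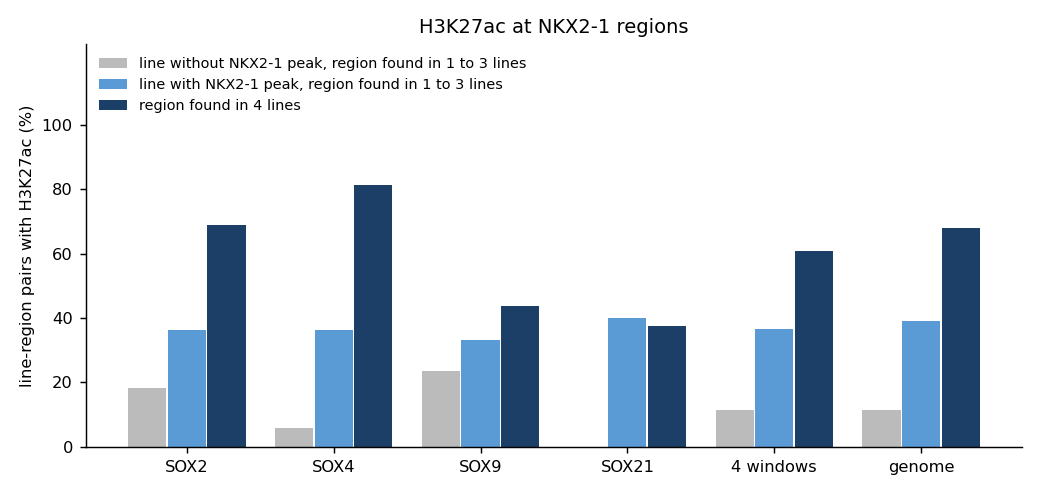
Percent of pairs of NKX2-1 region and line that overlap an H3K27ac peak of the same line, for pairs without an NKX2-1 peak (grey) and with one (light blue) at regions found in 1 to 3 lines, and for regions found in 4 lines (dark blue). The light bar stands above the grey bar at each gene, and at SOX21 the grey bar is at 0.

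H3K4me1 length followed the order of lines seen for H3K27ac at SOX2. In NCI-H2087 SOX2 had 18 H3K4me1 peaks, with 15 for NCI-H358, 18 for NCI-H441 and 11 for HCC364, covering 19.4, 16.4, 18.1 and 11.7 kb. The range over lines was narrower than for H3K27ac at that gene. SOX9 had 6, 9, 8 and 11 H3K4me1 peaks covering 6.02, 14.0, 8.22 and 16.8 kb, so NCI-H358 and HCC364 were again the 2 higher lines, with HCC364 above NCI-H358. SOX4 had 8, 12, 10 and 7 peaks and SOX21 had 9, 12, 4 and 5. At SOX21 the H3K4me1 length was below the median over all genes in each line, as for H3K27ac.

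Binding of the SOX2 protein at SOX genes was measured in NCI-H2087 only. Its list held 9262 peaks, and 5 of them lay at the members, 3 at SOX2, 1 at SOX9, 1 at SOX21 and none at SOX4. A SOX2 peak was thus present at 3 of the 4 members, where 46.8% of all genes and 35.6% of genes under 10 kb had one. Having at least 3, as SOX2 did, was met by 10.6% of all genes and 4.98% of those under 10 kb. No SOX2 peak lay within 1 kb of an end of any member. None of the 5 overlapped H3K4me3 (0 to 52.2%), where 5.65% of the whole SOX2 list did.

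The 3 SOX2 peaks at its own gene all lay above it. The strongest, chr3:181757817-181758378, 43.4 kb from the gene, had a fold of 19.4, rank 131 of the list and in the top 1.41%. It overlapped NKX2-1 (fold 10.7), FOXA1 (15.2), FOXA2 (19.8) and EP300 (4.86), with summits 60, 30, 10 and 82 bp away. No other line had an NKX2-1 peak there. A second peak 41.1 kb from the gene, chr3:181755568-181756318, had a fold of 13.0 (top 8.09%) and lay in the NKX2-1 region ranked first in the window, with NKX2-1, FOXA1 and FOXA2 summits 157, 159 and 104 bp away. This was also the one SOX2 peak of the gene with c-Jun, at a fold of 4.53, near the bottom of its list (top 99.1%). The peak nearest the gene, chr3:181739563-181740016, 25.1 kb away, had a fold of 6.05 (top 62.6%) and NKX2-1, FOXA1 and FOXA2 summits within 33, 8 and 24 bp. All 3 overlapped H3K27ac and H3K4me1 in NCI-H2087. The same H3K27ac peak, chr3:181756271-181758178, was counted for the SOX2 peaks 41.1 and 43.4 kb from the gene, with its summit 1823 and 433 bp away. It met the first of these only at that peak's upper edge. For the SOX2 peak 25.1 kb away the H3K27ac summit lay at 356 bp.

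The SOX2 peak at SOX9 ranked higher still. It lay 24.6 kb above the gene, chr17:72150987-72151775, with a fold of 20.1, rank 118 and in the top 1.27% of the list. Its region was the one with NKX2-1, H3K27ac and H3K4me1 in all 4 lines. Here the SOX2 summit lay apart from the others, 554 bp from that of NKX2-1, 562 bp from FOXA1, 607 bp from FOXA2 and 503 bp from c-Jun. The H3K27ac summit was nearer, at 195 bp. At SOX21 the SOX2 peak was weak, chr13:94706718-94707189, with a fold of 4.03 (top 95.3%). It lay 2.43 kb beyond the lower-coordinate end, in LINC00391, with FOXA1, FOXA2 and RNA polymerase II and without NKX2-1, H3K27ac or H3K4me1. Its −log10 q was 4.86, the lowest of the 5.

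**Figure D4:**
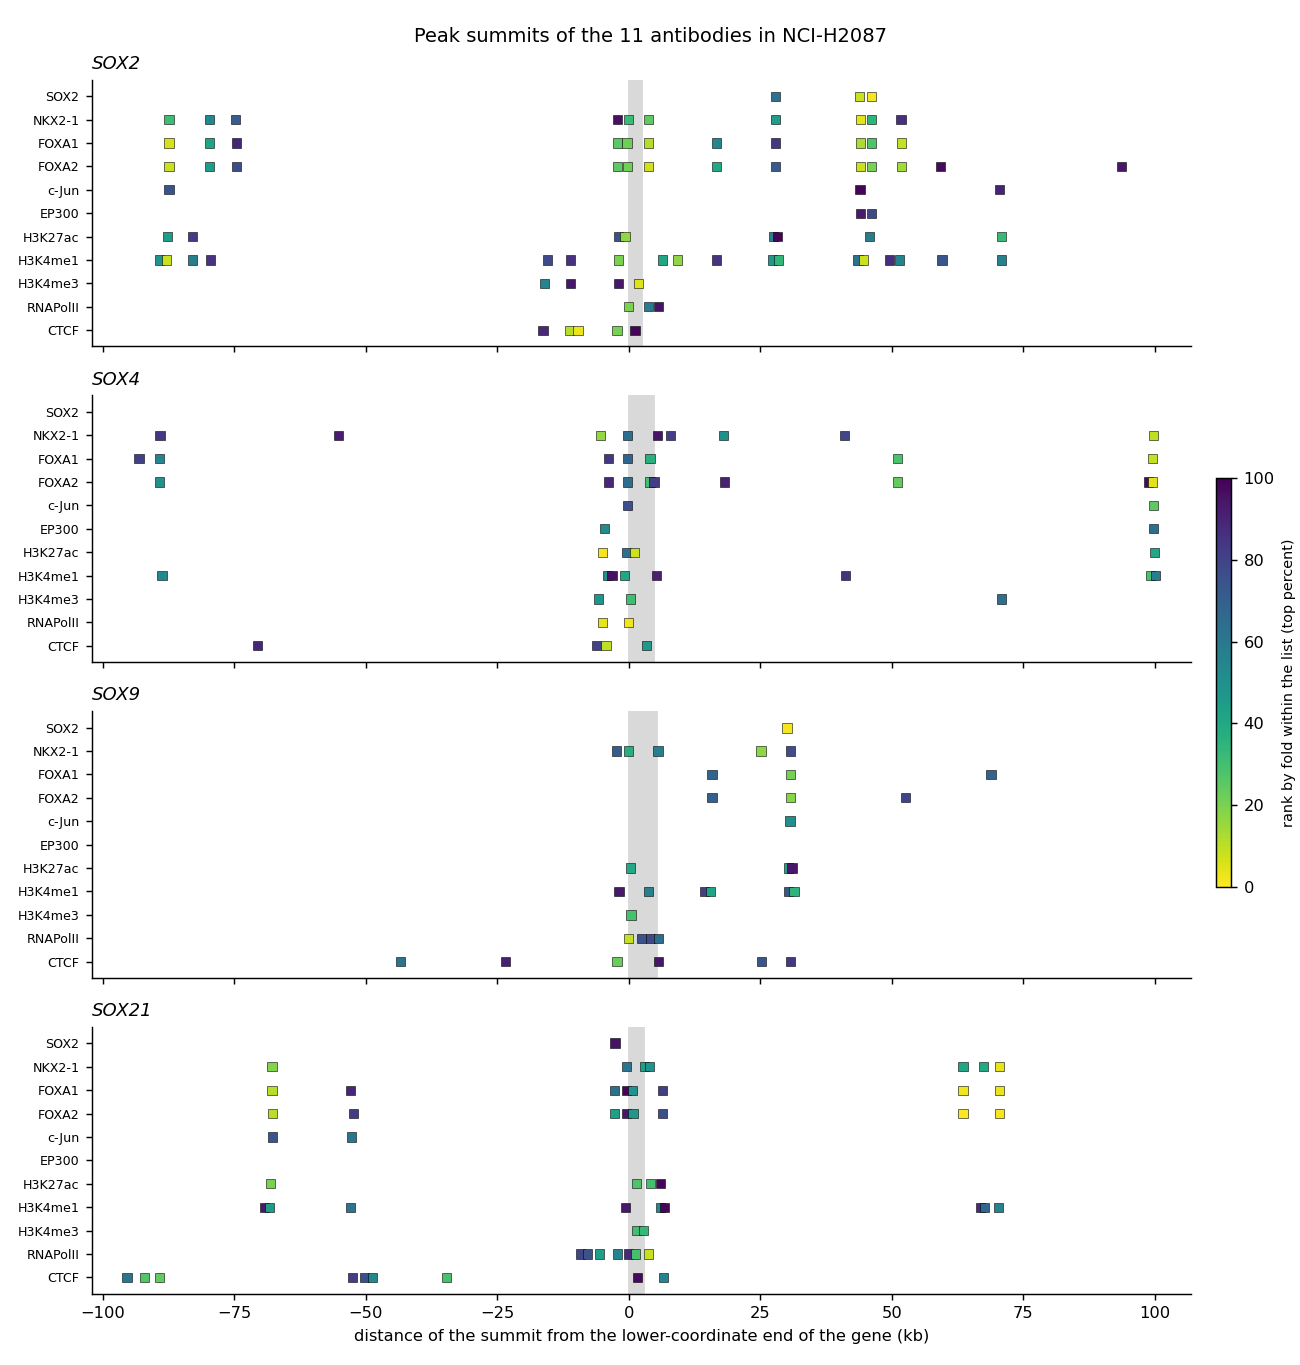
Peak summits of the 11 antibodies in NCI-H2087 (rows) against the distance in kb from the lower-coordinate end of each gene, coloured by rank within the list (yellow, highest fold), with the gene body in grey. SOX2 summits stack over NKX2-1, FOXA1 and FOXA2 above the SOX2 gene, and the SOX2 row is empty at SOX4.

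FOXA factors accompanied NKX2-1 unevenly. Of the 31 NKX2-1 peaks of NCI-H2087 at the members, 19 overlapped FOXA1 or FOXA2, 61.3% (42.2 to 78.2%), where 61.1% of the whole list did. By gene this was 10 of 10 at SOX2, 4 of 9 at SOX4, 1 of 5 at SOX9 and 4 of 7 at SOX21. SOX2 held 11 FOXA1 and 13 FOXA2 peaks, counts that 22.7% and 21.7% of all genes and 11.1% and 9.30% of genes under 10 kb reached. SOX9 held 3 of each, fewer than the medians of 6 and 7 over all genes and of 5 and 5 over genes under 10 kb. The strongest FOXA2 peak of the SOX2 window, with a fold of 41.3 (top 7.21%), lay at the upper end of the gene, beside NKX2-1 at 13.4. NKX2-1 peaks at the members overlapped SOX2 in 4 of 31 cases, 12.9% (3.63 to 29.8%), against 11.6% of the whole list. Regions with NKX2-1, SOX2, FOXA1 and FOXA2 together were the 3 SOX2 peaks at SOX2 and the 1 at SOX9. Such overlap was usual for this antibody. Of all 9262 SOX2 peaks, 96.5% overlapped NKX2-1, 93.7% FOXA1 and 96% FOXA2.

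EP300, a histone acetyltransferase, had 2 peaks at SOX2 and 2 at SOX4 and none at SOX9 or SOX21, in a short list of 7406 peaks. The median gene had 1, and 30.2% of all genes had at least 2. Those of SOX2 lay at the SOX2 peaks 41.1 and 43.4 kb from the gene, with low folds of 4.19 and 4.86 (top 92.9% and 78.9%). Those of SOX4 lay in the stretch below the gene and in the CASC15 region, with folds of 5.80 and 5.41 (top 51.6% and 64.2%). The AP-1 subunit c-Jun had 3, 2, 1 and 2 peaks at SOX2, SOX4, SOX9 and SOX21, where the median gene had 2. CTCF, which bounds chromatin loops, had 5, 4, 6 and 9, where the median gene had 8. Its strongest peak at SOX2, with a fold of 94.7 (top 2.96%), lay 9 kb below the gene. All SOX2 peaks of that window lay above the gene, whereas NKX2-1, FOXA1 and FOXA2 also had peaks below this CTCF peak. A link between the CTCF peak and SOX2 binding was not tested.

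Within 500 kb the SOX2 protein peaks of NCI-H2087 all lay above the SOX2 gene, the side that also held most peaks of NKX2-1 and H3K27ac. There were 3 in the first 100 kb above the gene, 6 from 100 to 200 kb, 1 from 200 to 300 kb and 1 from 400 to 500 kb, and none within 500 kb below it. In successive steps of 100 kb beyond the window NKX2-1 had 11, 6, 3 and 10 peaks above the gene and at most 1 per step below it. H3K27ac had 9, 5, 1 and 7 above, and below it had 1 peak, between 400 and 500 kb. SOX4, without a SOX2 peak in its window, had 3 from 100 to 200 kb above the gene and 2 between 200 and 400 kb below it. In the same steps SOX2 had 1, 0, 1 and 3 peaks above SOX9 and 3, 2, 3 and 3 above SOX21, with none beyond the window below either gene. These distant peaks were not assigned to a gene.

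**Figure D5:**
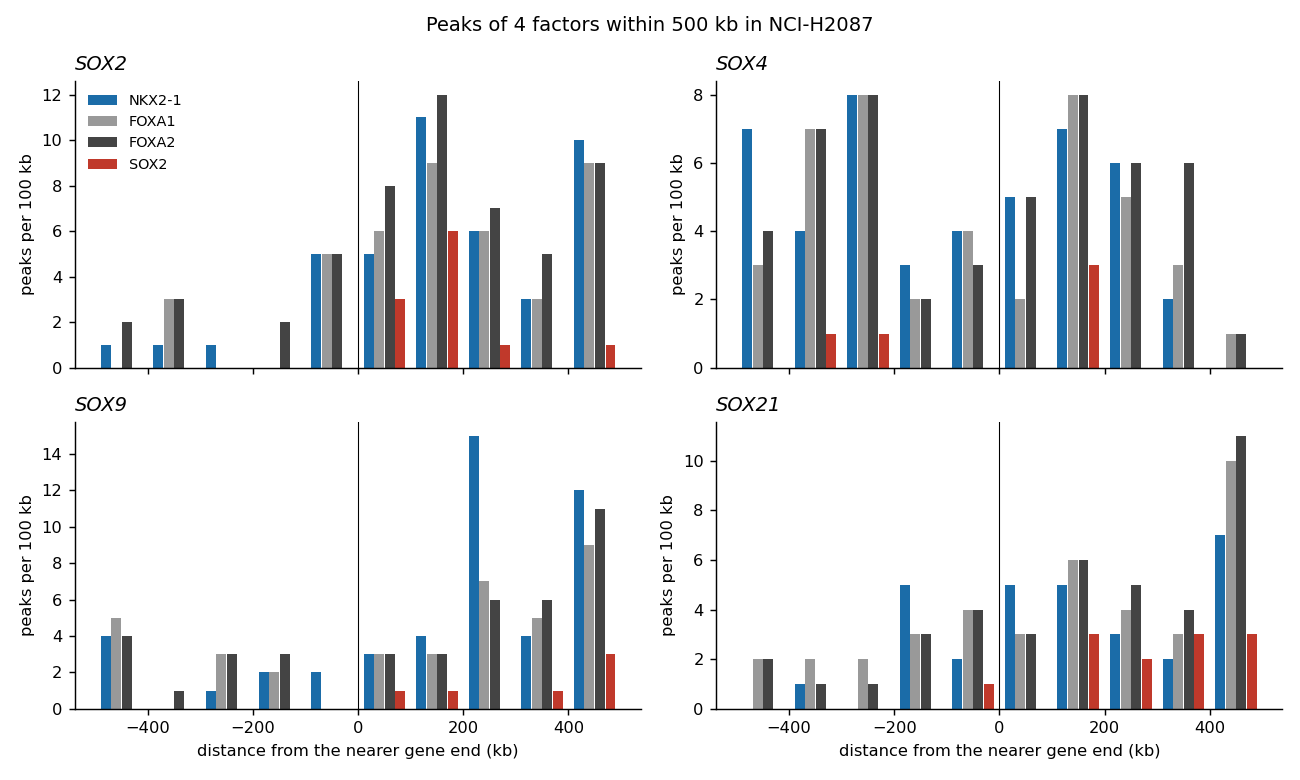
Number of NKX2-1, FOXA1, FOXA2 and SOX2 peaks per 100 kb (y axis) against the distance from the nearer gene end in kb (x axis) in NCI-H2087, negative values towards lower coordinates. At SOX2 the SOX2 bars (red) stand only to the right, with 6 peaks from 100 to 200 kb.

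Other genes of the family mostly lacked marks at their ends. Of 15 other SOX genes, 9 had no H3K27ac within 1 kb of an end in any line, and SOX6 and SOX12 had it in all 4. Over all 19974 genes 6832 had it in no line and 9870 in all 4. The share of all genes with a SOX2 peak in the window, 46.8%, is the background for the counts that follow. A SOX2 peak lay in the window of 5 of them, led by the very long gene SOX5 with 7, then SOX13 with 5. SOX14 and SOX3 had 1 and 0 NKX2-1 peaks in NCI-H2087, though SOX3 had 8 in HCC364. Of 8 proximal airway genes, 7 had a SOX2 peak in NCI-H2087, with 6 at TP63, the master regulator of basal cells, and 5 at NOTCH2. Of 8 genes of the distal lung bud tip, 4 did, with 3 each at ETV5 and HMGA2, and of 8 factors known as SOX partners or co-regulators, 7 did, with 8 peaks at KLF5. Window counts grow with gene length, which differs between these lists.

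Genes with the most similar pattern to each member were found by Pearson's r over 12 values, the covered length per kb of NKX2-1, H3K27ac and H3K4me1 in the 4 lines, centred within each antibody. These 12 values share their libraries, so r is a description. Each member was compared with 19187 to 19190 genes and the 3 with the highest r were kept, so a high r follows from the search. For SOX2, DNAJB8 (r = 0.974), GATA2 (0.967) and CARD18 (0.962) came first. The windows of DNAJB8 and GATA2 overlap each other, and both had 10.1 kb of H3K27ac in NCI-H2087 and 0.286 kb in HCC364. SOX4 was closest to RPL22 (0.985), GGACT (0.971) and CHD5 (0.951), SOX9 to UBR4 (0.977), LARP1B (0.963) and CLDN3 (0.962), and SOX21 to KCNMB2 (0.976), TOX3 (0.969) and AADACL2 (0.959). CLDN3, a tight-junction protein, had far more H3K27ac than SOX9 in every line, 44.4, 68.0, 41.0 and 61.8 kb, with the same 2 lines high. The search used H3K27ac length by line, so this order of lines was selected for.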

How the data were processed

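Each line and antibody is 1 of 20 libraries with a peak list, grouped by sample title. Files of the 5 input libraries were not analysed here. The tools named in the submitters' processing notes are MACS2 (2.1.1 and 2.2.7.1), bedtools, SAMtools 1.9, Bowtie2 2.2.9 and Trimmomatic 0.36, with hg38 as the build. The version behind each list is not stated there. The deposited lists hold the authors' fold over local background (a linear ratio), the −log10 p and the −log10 q of each peak, and the offset of its summit. No deposited list held a −log10 q under 3. The fold was used to describe and rank peaks within a list, and folds in different lines are not compared as levels. To choose the regions to name, the fold was averaged over the lines with a peak there, so these means rest on different lists by region. Read depth is not in these files. The lists of the 3 antibodies used in all lines hold 47136 to 121789 peaks, and a region without a peak is not shown to lack the protein.

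Coordinates were written 1-based. Peaks on chromosomes 1 to 22 and X were used (0.0610 to 0.502% of a list left out). Peaks of the 4 lines were merged at 1 bp of overlap, and a line was counted at a region when its peak overlapped it. Genes and promoters came from RefSeq (GRCh38.p14), and 3 of the 4 members matched the promoter table. "Above" and "below" a gene mean towards higher and lower coordinates. Background shares use all protein-coding genes. Scripts in Python 3.11.15 (numpy 2.4.6, pandas 2.3.3, SciPy 1.17.1) were tested on simulated data. No test was run, because each group is 1 library. The named regions are the 3 NKX2-1 regions of highest mean fold in each window, every SOX2 peak and every region with NKX2-1, SOX2, FOXA1 and FOXA2. Other regions named were chosen after their values were seen. Members and lists were chosen with earlier results of these data known. Alternatives were the window, the 20000 strongest peaks, −log10 q of at least 5, 500 bp summit windows and leaving out a line.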

Additional observations from a re-analysis of the deposited data

How the results depend on the processing

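The difference in H3K27ac between pairs with and without NKX2-1 kept its sign under every alternative, from 16.4 to 33.3 points. NKX2-1 and H3K27ac were matched by line in these pairs, but no paired test was run because each line and antibody is 1 library. The count of NKX2-1 regions in the 4 windows, 62, was 34 with 50 kb, 156 with 250 kb and 13 with the 20000 strongest peaks of each list, as the window or list was smaller or larger. With those strongest peaks the share of NKX2-1 regions in all 4 lines was 7.69% and that of H3K4me1 regions was 0%, and 500 bp summit windows gave 4.44% for H3K4me1. Without the line HCC364 the H3K4me1 share, then in 3 lines, was 37.3%. The SOX2 peaks numbered 20 with 250 kb, and 4 with a −log10 q of at least 5, which removed the one at SOX21. NCI-H2087 had the most and HCC364 the least H3K27ac at SOX2 in all 4 alternatives run on it. At SOX9 the highest line became HCC364 (16.2 kb) with 250 kb. At SOX4 the lowest became NCI-H2087 (20.4 kb) with 250 kb, and at SOX21 the lowest became NCI-H441 with 50 kb (0 kb) and with 250 kb (7.26 kb). The line with most NKX2-1 peaks at SOX4, NCI-H441, became one of the 2 lowest with the 20000 strongest peaks (1 against 2 in NCI-H2087 and NCI-H358), and at SOX9 NCI-H441 joined NCI-H358 as highest with 250 kb, at 22. Of 16 NKX2-1 counts 16 moved by over 1.5 times with 250 kb, 16 with the 20000 strongest peaks and 9 with 50 kb. Of 16 H3K27ac lengths 16, 8 and 3 did.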
